A study of Mus musculus with 4 samples.

Results

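The 73 genes described here encode the SLC25 carriers, the TIM and TOM subunits of the mitochondrial import machinery, and both subunits of the matrix processing peptidase. They were taken from the table by symbol alone: every measured gene named Slc25a, Timm or Tomm followed by a number, plus Pmpca and Pmpcb. That gave 46 SLC25 carriers, 15 TIM genes, 10 TOM genes and 2 peptidase genes of 19504 measured genes, each with 1 row. Expression was measured with 1 Affymetrix array per genotype in sorted mouse group 3 innate lymphoid cells (ILC3s), lymphocytes of barrier tissues that lack rearranged antigen receptors. The cells were sorted as lineage-negative, CD90 high and CD45 low. The 4 genotypes were circZbtb20+/+, circZbtb20-/-, Nr4a1+/+ and Nr4a1-/-, and each knockout has its own wild type. circZbtb20 is a circular RNA of the Zbtb20 gene and Nr4a1 is an orphan nuclear receptor. The labels used here give no age, tissue, strain or number of mice behind a sample, and no allele beyond those genotypes.

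Most mitochondrial proteins are made in the cytosol and imported. The TOM complex of the outer membrane receives precursors, the TIM23 complex passes those with a presequence to the matrix, where the processing peptidase removes it, and the TIM22 complex inserts carrier proteins into the inner membrane. Small TIM chaperones guide those hydrophobic carriers across the intermembrane space. SLC25 carriers are themselves clients of the TIM22 route, and they move phosphate, nucleotides, carboxylates, amino acids, metals and cofactors across the inner membrane. In lymphocytes, activation is known to go with growth of the mitochondrial compartment.

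All values are deposited log2 expression values, and a difference is knockout minus its own wild type on that log2 scale. Each genotype was measured once, so no difference carries an error or a test, and precision is limited by having 4 arrays in all. A gene was counted as higher or lower when its difference was at least 1, which is 2-fold, and the higher value reached that array's median over all rows, between 4.34 and 4.51. The other wild type served as a second control, and the difference between the wild types as the background. Levels of different genes come from different probes and are not compared. No row was matched to the circular RNA itself, and no value is given for it. The ILC3 markers with a row (7 of 10) had median values of 16.21 and 17.32 in the circZbtb20 wild type and knockout, and of 15.43 and 5.35 in the Nr4a1 pair. For 11 of 12 T cell markers these medians were 4.72, 5.48, 6.42 and 16.79, and for 10 of 11 markers of pancreatic acinar cells 11.79, 4.48, 8.09 and 4.16, in the same order. On the array labelled as the Nr4a1 knockout the ILC3 genes Kit, Il23r and Ncr1 were at 5.48, 4.73 and 3.0, against 18.36, 15.43 and 15.05 in its wild type, and T cell genes were high. Nr4a1 itself was at 11.63 there and at 18.11 in its control, while the circZbtb20 knockout had 15.98 and its wild type 19.93, the ceiling of the table. In such bulk samples, fewer cells of a type and less RNA per cell cannot be told apart.

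The wild types were close to each other for these genes. Only 3 of the 73 differed at least 2-fold. These were 6.2% of the 48 past the filter, beside 15.2% of all genes past it. Pmpcb, the catalytic beta subunit of the processing peptidase, was at 10.25 in the circZbtb20 wild type and 8.82 in the Nr4a1 wild type. Timm44, which tethers the import motor to the TIM23 channel, was at 7.12 and 5.98, and Tomm34, a cytosolic co-chaperone of import, at 7.69 and 8.69. The median absolute difference between the wild types was 0.33 for the 73 genes and 0.32 for all genes. None of the 46 SLC25 carriers reached 2-fold between the wild types, and their differences ran from -0.63 to 0.80.

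The knockouts stood further from their controls. The median absolute difference was 0.74 for circZbtb20 and 0.73 for Nr4a1, where all genes gave 0.52 and 0.54. These medians include genes that did not pass the filter, which make up more of all genes than of the 73. For circZbtb20, 21 of the 73 genes were higher in the knockout and 8 were lower, with 52 past the filter. The same rule called 27.3% of all genes past the filter higher and 19.4% lower in that comparison. Without the filter the median was 0.18 over the 73 genes and 0.04 over all genes, and past the filter 0.46 and 0.17. Requiring the size against each wild type left 19 higher and 8 lower genes, where this stricter rule called 20.5% and 13.3% of all genes past its filter. Of 27 import and processing genes 23 passed the filter, with 12 higher and 2 lower, or 52.2% and 8.7% of the 23. Of 46 carriers 29 passed it, with 9 higher and 6 lower. These were 31% and 20.7% of the 29, near the shares of all genes. Without the filter the medians were 0.49 for the import and processing genes and 0.17 for the carriers. The difference between these groups was not tested.

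**Figure D1:**
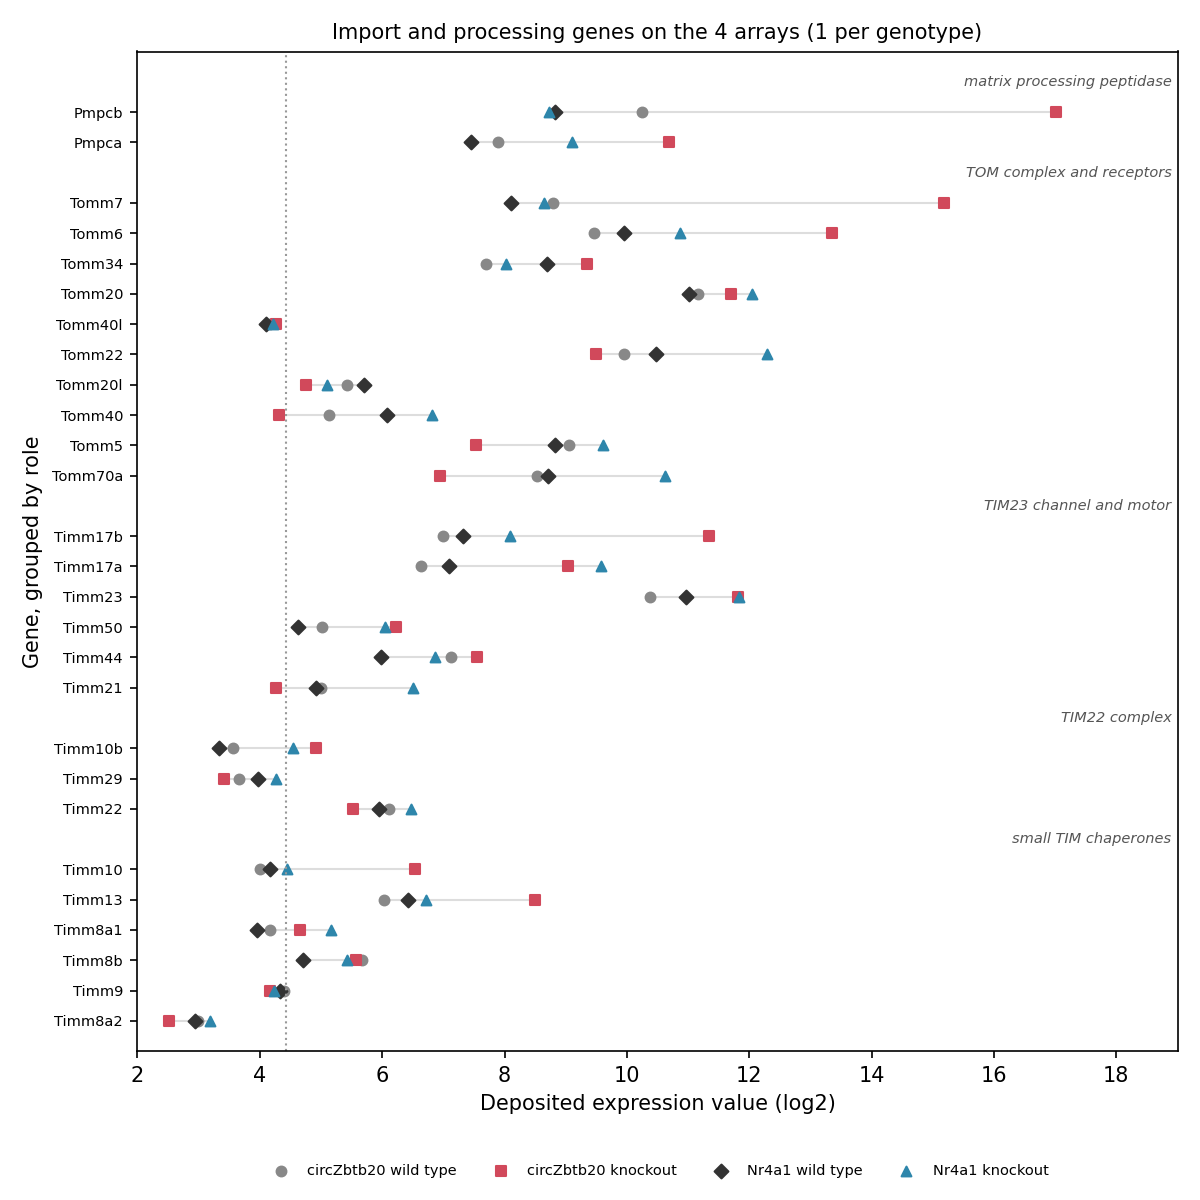
Deposited log2 values (horizontal axis) of the 27 import and processing genes, grouped by role and ordered by their difference in the circZbtb20 knockout, with 1 point per array. Grey lines span the 4 values of a gene, and the dotted line is the mean of the 4 array medians. The circZbtb20 knockout stands alone at the right for Pmpcb (17.01), Tomm7 (15.19), Tomm6 (13.36) and Timm17b (11.34), and at the left for Tomm70a (6.94) and Tomm5 (7.53).

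The processing peptidase had the widest difference of the set in the circZbtb20 knockout. Pmpcb stood at 17.01 there and at 10.25 in its control, while the Nr4a1 wild type and knockout had 8.82 and 8.73. Its difference was 6.76, or 8.19 with the Nr4a1 wild type as control, and the controls themselves differed by -1.43. Its partner Pmpca, the alpha subunit that recognises presequences, was at 10.68 in that knockout, 7.90 and 7.45 in the circZbtb20 and Nr4a1 wild types, and 9.11 in the Nr4a1 knockout. Both subunits were therefore highest in the circZbtb20 knockout, by 2.78 for Pmpca, less than for Pmpcb. In the Nr4a1 knockout only Pmpca was higher, by 1.66, while Pmpcb gave -0.09 with its own control and -1.52 with the circZbtb20 one.

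The TOM subunits differed in direction in the circZbtb20 knockout. Of 10 TOM genes 9 passed the filter, with 3 higher and 2 lower, or 33.3% and 22.2% of the 9. These shares are near the 27.3% and 19.4% of all genes past it. The median was -0.17, and with the Nr4a1 wild type as control it was -0.38. Tomm7, a small subunit that acts in assembly of the complex, was at 15.19 in that knockout and between 8.10 and 8.79 on the other 3 arrays, a difference of 6.40. Tomm6, another small subunit, was at 13.36 against 9.47, 9.95 and 10.86 in the circZbtb20 wild type, the Nr4a1 wild type and the Nr4a1 knockout, a difference of 3.89. Tomm5, the third small subunit, went the other way, at 7.53 against 9.05 in its wild type and 8.82 to 9.61 on the other arrays. These 3 small subunits thus differed in sign on 1 array. Tomm34 was higher by 1.66 in the circZbtb20 knockout, but with the Nr4a1 wild type as control the value was 0.66, under the 2-fold size. In the Nr4a1 knockout it differed by -0.66.

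Among the import receptors, Tomm70a, which receives the carrier precursors, was at 6.94 in the circZbtb20 knockout and 10.62 in the Nr4a1 knockout, around wild-type values of 8.53 and 8.71. It was the only one of the 73 genes called lower in the circZbtb20 knockout, by -1.59, and higher in the Nr4a1 knockout, by 1.91. Tomm22, the central receptor, was at 9.50 and 12.29 in these knockouts and at 9.95 and 10.48 in the wild types, so the Nr4a1 knockout alone stood apart, by 1.81. Tomm20, the presequence receptor, differed by 0.53 in the circZbtb20 knockout and by 1.04 in the Nr4a1 knockout, the latter 0.88 with the other control and 0.74 after cyclic loess. The channel Tomm40, at 4.32 in the circZbtb20 knockout, 5.13 and 6.08 in the wild types and 6.82 in the Nr4a1 knockout, reached 2-fold only against the wild type that is not its own, with differences of -1.76 and 1.69. Its paralogue Tomm40l stayed between 4.10 and 4.27 on all arrays, below each array's median. Tomm20l, the paralogue of Tomm20, ranged from 4.76 to 5.70 and was called in neither knockout.

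In the circZbtb20 knockout 27.3% of all genes past the filter were higher and 19.4% lower. All 6 TIM23 genes passed the filter, and 4 were higher there and 0 lower. Their median difference was 1.33, and 1.58 with the Nr4a1 wild type as control. Timm17b and Timm17a are paralogues that form the channel with Timm23. Timm17b was at 11.34 and 8.09 in the circZbtb20 and Nr4a1 knockouts and at 6.99 and 7.32 in their wild types. Timm17a was at 9.03 and 9.57 in the knockouts and at 6.63 and 7.09 in the wild types. It was called higher in both knockouts, and Timm17b only in the circZbtb20 knockout. The differences of Timm17b and Timm17a were 4.35 and 2.40 in the circZbtb20 knockout and 0.77 and 2.48 in the Nr4a1 knockout. With the circZbtb20 wild type as control Timm17b gave 1.10 in the Nr4a1 knockout, past the 2-fold size. Timm23 itself was at 11.82 and 11.83 in the knockouts and at 10.38 and 10.97 in the wild types. Its difference of 1.44 in the circZbtb20 knockout was 0.85 with the Nr4a1 wild type as control and also 0.85 after quantile normalization, both under the 2-fold size. For Nr4a1 the value was 0.86, and 1.45 with the circZbtb20 wild type as control.

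The receptor Timm50, which takes presequences from TOM to the channel, was at 6.23 and 6.04 in the circZbtb20 and Nr4a1 knockouts and at 5.01 and 4.63 in their wild types. It was called in both knockouts, by 1.22 and 1.41. Timm21, which links TIM23 to TOM, was at 4.26 in the circZbtb20 knockout and 6.50 in the Nr4a1 knockout, around wild-type values of 5.0 and 4.91. It was called only in the Nr4a1 knockout, by 1.59. Timm44 differed by 0.43 and 0.89, under the 2-fold size in both, though by 1.57 when the circZbtb20 knockout is set against the Nr4a1 wild type.

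In the TIM22 route fewer genes stood above the array median. Timm22, the channel, ranged from 5.52 in the circZbtb20 knockout to 6.47 in the Nr4a1 knockout and was called in neither. Timm10b, which docks the chaperones on TIM22, was at 4.91 and 4.54 in the knockouts against 3.56 and 3.33 in the wild types. Both wild-type values lay below the median, so its differences of 1.35 and 1.21 rest on low values. With the other control the Nr4a1 value was 0.98, under the 2-fold size. Timm29, which stabilises human TIM22, was below the median on all 4 arrays.

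Of 6 small TIM chaperones 2 were higher in the circZbtb20 knockout and 0 lower. Timm10 was at 6.54 there and between 4.01 and 4.44 on the other 3 arrays. Timm9, with which Timm10 forms a hexamer, stayed between 4.17 and 4.39, below the median on every array. Timm13, the partner of Timm8 proteins, was at 8.49 there and between 6.03 and 6.71 on the others. Timm10 and Timm13 were thus higher in the circZbtb20 knockout, by 2.53 and 2.46. Both wild-type values of Timm10 lay below the array median, so the filter allowed it only a call as higher. Timm9 and Timm8a2, below the median on every array, could not be called at all. The calls of Timm10 and Timm9 are therefore no contrast between partners. The Timm8 genes differed by -0.47 for Timm8a2, -0.10 for Timm8b and 0.49 for Timm8a1. In the Nr4a1 knockout Timm8a1 was higher by 1.21, from a low value of 3.95, and by 0.99 with the other control.

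Promoter sequence was compared among the genes because several of them were called together. RefSeq promoter entries on build GRCm38.p6 matched 60 of the 73 genes, and windows of 280 bases, from 250 before to 30 after each listed start, were searched on both strands. The ETS core CCGGAAG, the kind of site that GABPA binds, was in 17 of the 60 genes, or 28.3%, against 12.7% of 15690 measured genes with an entry and 8.45% of all 32851 windows. The median GC content of the windows was 58.9% for these genes and 56.8% for all measured genes. The core was in 8 of 19 matched genes higher in the circZbtb20 knockout and in 3 of 7 lower ones, and in 5 of 15 higher and 1 of 5 lower ones in the Nr4a1 knockout. The 8-base NRF1 core GCATGCGC was in 3 of 60 genes (5.0%, against 3.9%), the YY1 core AAGATGGC in 1 (1.7%, against 2.9%), and the E-box CACGTG in 11 (18.3%, against 8.9%). The NBRE element AAAGGTCA, which NR4A receptors bind as monomers, was in 1 gene, Slc25a34 (1.7%, against 1.5%), and the ERR half-site CAAGGTCA, which shares its last 7 letters, in Timm8b (1.7%, against 1.4%). A match is a description of the letters only. The windows of 6 genes are shown because their values carry the comparisons: both peptidase subunits, a chaperone, a carrier called in both knockouts, the receptor that was low in 1 knockout and high in the other, and a TIM23 subunit without the core. Pmpcb lies at chr5:21736910-21737189 (plus strand), Pmpca at chr2:26389098-26389377 (plus), Timm10 at chr2:84826771-84827050 (plus), Slc25a17 at chr15:81360736-81361015 (minus), Tomm70a at chr16:57121464-57121743 (plus) and Timm17b at chrX:7899086-7899365 (plus). They are written 5′ to 3′ on the gene's strand, with each ETS core in capitals, where Timm10 has 3, 2 of them overlapping, and Tomm70a has 2.
Pmpcb: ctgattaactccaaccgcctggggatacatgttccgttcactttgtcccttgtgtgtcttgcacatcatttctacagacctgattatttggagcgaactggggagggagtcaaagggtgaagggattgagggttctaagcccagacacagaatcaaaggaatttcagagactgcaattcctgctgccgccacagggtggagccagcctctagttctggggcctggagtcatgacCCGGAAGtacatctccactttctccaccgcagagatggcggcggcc
Pmpca: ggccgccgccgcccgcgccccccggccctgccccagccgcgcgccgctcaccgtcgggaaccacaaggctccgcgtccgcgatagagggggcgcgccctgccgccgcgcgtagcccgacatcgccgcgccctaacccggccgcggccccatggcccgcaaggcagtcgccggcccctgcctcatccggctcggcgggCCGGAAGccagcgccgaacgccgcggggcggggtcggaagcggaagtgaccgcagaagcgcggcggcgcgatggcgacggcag
Timm10: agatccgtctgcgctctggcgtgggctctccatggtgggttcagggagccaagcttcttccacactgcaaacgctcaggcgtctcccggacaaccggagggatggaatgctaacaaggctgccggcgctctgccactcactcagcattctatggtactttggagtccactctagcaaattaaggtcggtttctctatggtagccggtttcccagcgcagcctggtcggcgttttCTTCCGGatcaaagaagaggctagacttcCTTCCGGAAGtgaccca
Slc25a17: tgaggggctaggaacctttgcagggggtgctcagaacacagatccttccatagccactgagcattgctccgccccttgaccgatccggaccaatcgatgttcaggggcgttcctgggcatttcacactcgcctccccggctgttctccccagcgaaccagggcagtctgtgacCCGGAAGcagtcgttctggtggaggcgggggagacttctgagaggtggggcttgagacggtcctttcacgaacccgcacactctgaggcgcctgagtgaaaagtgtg
Tomm70a: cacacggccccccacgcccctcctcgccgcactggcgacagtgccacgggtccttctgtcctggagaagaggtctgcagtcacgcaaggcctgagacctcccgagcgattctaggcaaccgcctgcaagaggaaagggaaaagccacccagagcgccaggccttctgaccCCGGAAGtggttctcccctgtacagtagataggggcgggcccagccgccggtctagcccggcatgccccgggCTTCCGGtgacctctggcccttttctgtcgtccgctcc
Timm17b: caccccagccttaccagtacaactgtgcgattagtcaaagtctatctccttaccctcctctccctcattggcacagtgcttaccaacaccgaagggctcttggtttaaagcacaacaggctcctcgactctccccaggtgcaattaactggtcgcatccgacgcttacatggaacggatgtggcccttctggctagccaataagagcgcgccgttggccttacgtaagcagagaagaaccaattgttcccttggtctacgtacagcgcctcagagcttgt

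The carriers were mixed in the circZbtb20 knockout. Of 4 carboxylate and keto acid carriers 3 passed the filter, and all 3 were called higher, where all genes past it gave 27.3%. The median over the 4 was 1.96. Slc25a10, which exchanges malate or succinate for phosphate, was at 6.52 there and between 4.24 and 4.82 on the other 3 arrays. Slc25a1, which exports citrate for lipid synthesis, was at 10.90, against 8.66 to 9.05 on the other 3 arrays. Slc25a11, the oxoglutarate carrier of the malate-aspartate shuttle, was at 9.20 in the circZbtb20 knockout and 10.37 in the Nr4a1 knockout, against 7.13 and 7.67 in the wild types. The differences in the circZbtb20 knockout were 2.28, 1.85 and 2.07. The fourth, Slc25a21, was below the median on every array.

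**Figure D2:**
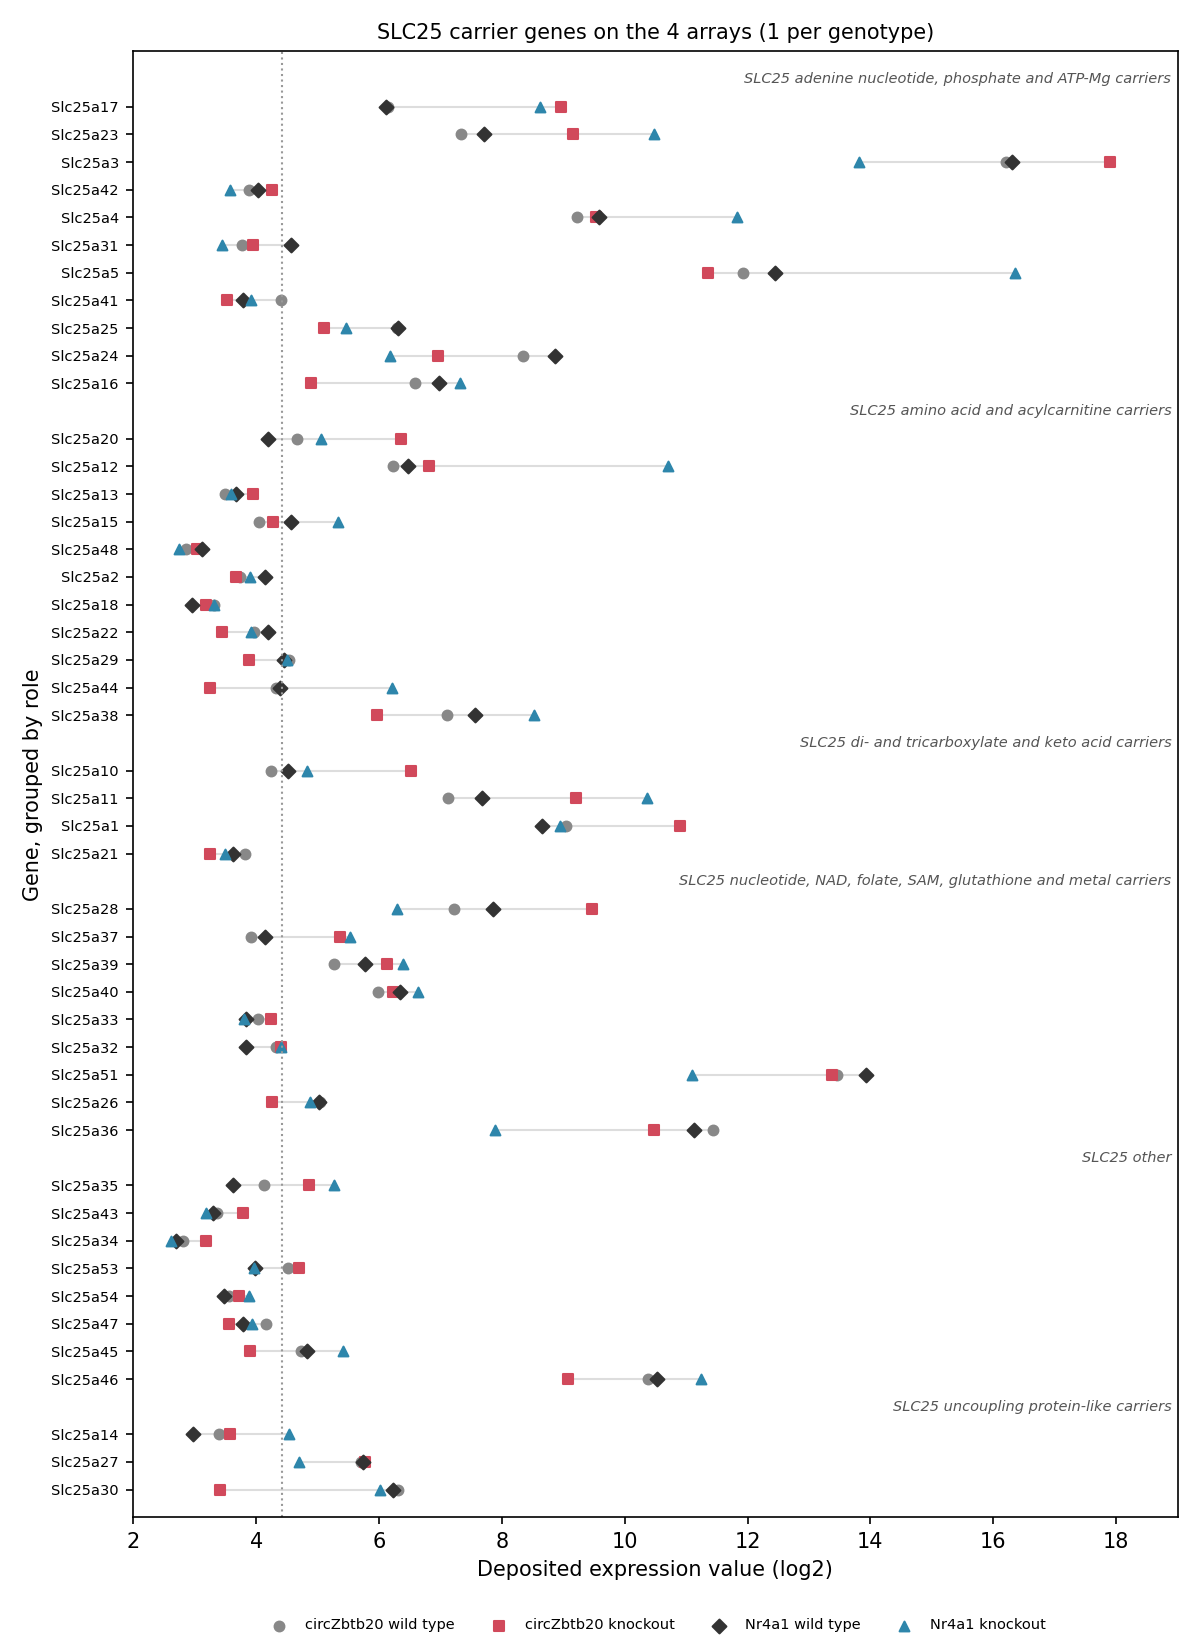
Deposited log2 values (horizontal axis) of the 46 SLC25 carrier genes, grouped by role and ordered within a role by their difference in the circZbtb20 knockout, with 1 point per array. The dotted line is the mean of the 4 array medians. The Nr4a1 knockout stands apart at the right for Slc25a5 (16.35) and Slc25a12 (10.70) and at the left for Slc25a36 (7.88), Slc25a51 (11.09) and Slc25a3 (13.82).

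Among 11 carriers of phosphate, adenine nucleotides and related cofactors, 8 passed the filter for circZbtb20. In that knockout 3 were higher and 3 lower, 37.5% of the 8 each, beside 27.3% and 19.4% of all genes past it. Slc25a3, which brings phosphate into the matrix for ATP synthesis, was at 17.90 in the circZbtb20 knockout and 13.82 in the Nr4a1 knockout, against 16.21 and 16.30 in their wild types. It was thus called in opposite directions, by 1.69 and by -2.48. Slc25a17, a carrier of coenzyme A and NAD in the peroxisomal membrane, was at 8.96 and 8.62 in the knockouts against 6.15 and 6.12 in the wild types. Its differences of 2.81 and 2.50 make it the carrier with the highest difference in the circZbtb20 knockout. Slc25a16, linked to coenzyme A in the matrix, was at 4.89 in the circZbtb20 knockout against 6.59 to 7.32 on the other arrays, a difference of -1.70.

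The ATP-Mg/phosphate carriers, which exchange ATP-Mg for phosphate and so adjust the adenine nucleotide pool of the matrix, differed in direction. Slc25a23 was at 9.15 in the circZbtb20 knockout and 10.48 in the Nr4a1 knockout, against 7.33 and 7.71 in their wild types. Its paralogue Slc25a24 was at 6.96 and 6.18, against 8.34 and 8.87. One was therefore higher in both knockouts, by 1.82 and 2.77, and the other lower in both, by -1.38 and -2.69. Slc25a25 differed by -1.19 and -0.84 and Slc25a41, below the median on all arrays, by -0.88 and 0.13.

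For the circZbtb20 knockout 27.3% of all genes past the filter were called higher and 19.4% lower. Of 11 amino acid and acylcarnitine carriers only 4 passed the filter, with 1 higher and 1 lower. Of 9 carriers of nucleotides, cofactors and metals 8 passed it, with 2 higher and 0 lower in the circZbtb20 knockout. Slc25a20, which carries acylcarnitines for fatty acid oxidation, was at 6.35 there and 5.05 in the Nr4a1 knockout, against 4.67 and 4.19 in the wild types, a difference of 1.68 for circZbtb20. Slc25a38, a glycine importer needed for heme synthesis, was at 5.97 there and 8.53 in the Nr4a1 knockout, against 7.10 and 7.56, a difference of -1.13. Of the iron carriers, Slc25a28 (mitoferrin-2) was higher by 2.25, at 9.47 against 7.22, and Slc25a37 (mitoferrin-1) by 1.44, at 5.36 against 3.92. In the Nr4a1 knockout this pair split. Slc25a28, at 6.29 against 7.86, differed by -1.57, but by -0.93 with the other control. Slc25a37, at 5.52 against 4.15, differed by 1.37. Both wild-type values of Slc25a37 lay below the array median, so its differences rest on low values. Slc25a30, an uncoupling protein-like carrier, was at 3.41 in the circZbtb20 knockout, below that array's median, and at 6.31, 6.23 and 6.02 on the others. Its difference of -2.90 was the lowest of the 73. Slc25a46, an outer membrane protein tied to fission, was at 9.07 in the circZbtb20 knockout against 10.38 to 11.25 elsewhere, a difference of -1.31.

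For Nr4a1, 19 of the 73 genes were higher in the knockout and 7 were lower, with 55 past the filter, beside 31.9% and 20.8% of all genes past it. Without the filter the median was 0.35, against 0.00 over all genes, and past the filter 0.74, against 0.29. The stricter rule left 16 higher and 5 lower, beside 26.1% and 14.4% of all genes. Every one of the 7 lower genes was an SLC25 carrier. Of 46 carriers 32 passed the filter, with 10 higher and 7 lower. These were 31.2% and 21.9% of the 32, near the shares of all genes. Of the 27 import and processing genes 23 passed it, with 9 higher and 0 lower, or 39.1% and 0%. Against both controls 6 of the 9 held. A difference above 0 was found in 23 of these 27 genes and in 9653 of all 19504 genes. The latter include a larger part of genes that did not pass the filter. The T cell markers were measured on the same array. All 11 were called higher, with a summed level (the log2 of the sum of their unlogged values) of 20.88 there and 10.83 in its wild type, and all 7 ILC3 markers were lower, at 15.79 against 19.94. All 10 acinar markers were lower as well, at 7.52 against 15.52. Genotype and cell content of this array cannot be told apart, and this holds for every gene of this comparison.

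Slc25a12 and Slc25a5 had the highest differences of the 73 genes in the Nr4a1 knockout. Slc25a12, the aspartate/glutamate carrier of the malate-aspartate shuttle, was at 10.70 there and between 6.23 and 6.82 on the other 3 arrays, a difference of 4.23. Slc25a5, the ADP/ATP translocase of proliferating cells, was at 16.35, against 12.45 in its wild type and 11.92 and 11.35 in the circZbtb20 pair. Slc25a4, the translocase known from heart and muscle, was at 11.83, against 9.58, 9.23 and 9.53. Slc25a5 and Slc25a4 were thus both higher in the Nr4a1 knockout, by 3.90 and 2.25, and neither was called in the circZbtb20 knockout, at -0.57 and 0.30. Probes for such paralogues can share sequence, and the probe sequences were not used here. Slc25a31, the germ-cell translocase, differed by -1.12 from a value of 4.57 near the array median, and by -0.32 with the other control.

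Among the lower genes of the Nr4a1 knockout were carriers of nucleotides and NAD. Slc25a36, a pyrimidine nucleotide carrier, was at 7.88 there and between 10.47 and 11.43 on the other 3 arrays, a difference of -3.25. Slc25a51, which brings NAD into mitochondria, was at 11.09 against 13.37 to 13.93, a difference of -2.84. Both were called only in this knockout, with -0.96 and -0.09 in the circZbtb20 knockout. Slc25a33, the paralogue of Slc25a36, was below the median on every array. Slc25a27, an uncoupling protein-like carrier, was lower by -1.05 (-0.88 after centring the arrays), and its relative Slc25a14 higher by 1.57 from a low value of 2.97. Slc25a44, a branched-chain amino acid carrier, was at 6.21 against 4.38, a difference of 1.83, and Slc25a35, whose substrate is not settled, was higher by 1.63 from 3.63.

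**Figure D3:**
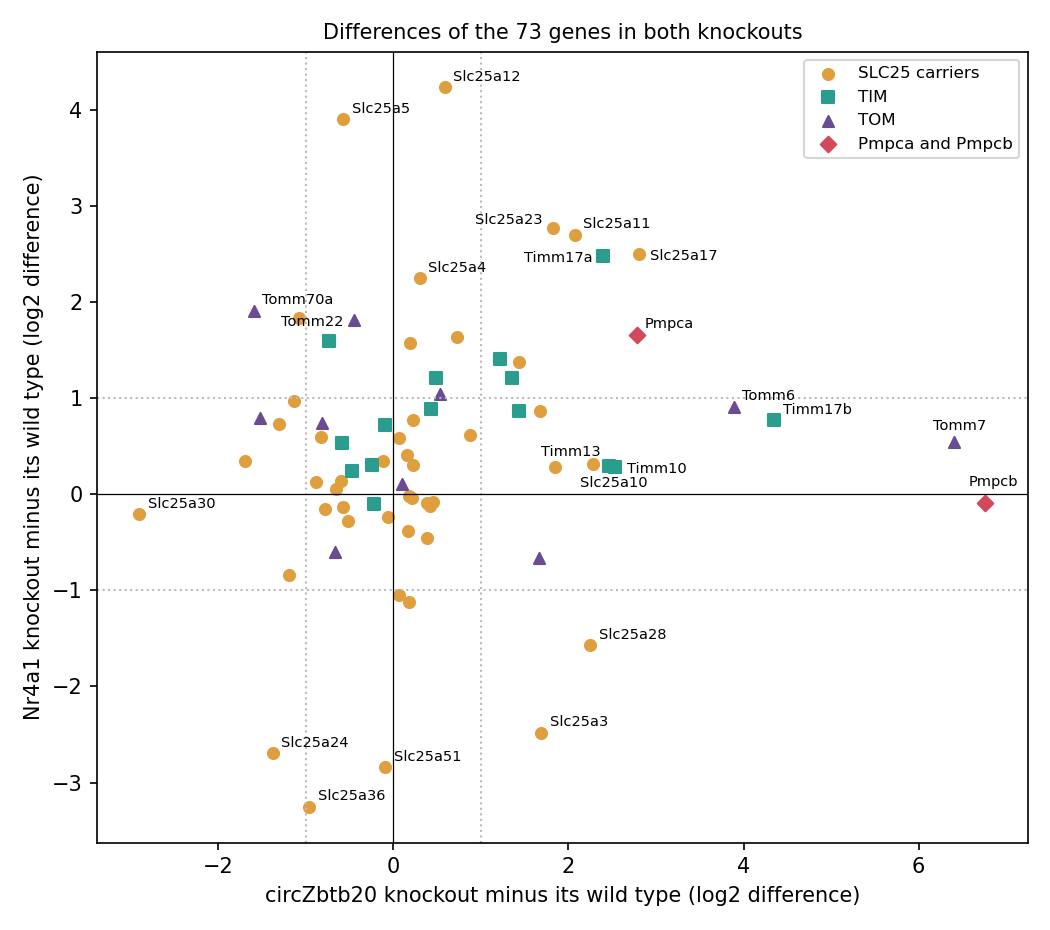
Log2 difference of each of the 73 genes in the circZbtb20 knockout (horizontal axis) and in the Nr4a1 knockout (vertical axis), each against its own wild type, with dotted lines at 1 and -1. The upper right holds Slc25a17, Slc25a11, Slc25a23, Timm17a and Pmpca, while Pmpcb (6.76 and -0.09) and Tomm7 (6.40 and 0.54) differ along the horizontal axis alone.

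Calls of both knockout comparisons, each with its own wild type, are set side by side here. Both wild types had higher summed acinar marker levels (18.88 for circZbtb20 and 15.52 for Nr4a1) than their knockouts (9.46 and 7.52). The part of this in shared calls was not tested. Of the 73 genes 8 were higher in both: Pmpca, Timm17a, Timm50, Timm10b, Slc25a11, Slc25a17, Slc25a23 and Slc25a37. Of these, Timm10b did not keep its Nr4a1 call with the other control, at 0.98. Slc25a37 and Timm10b lay below the array median in both wild types, so the filter allowed them only a call as higher. The 8 make up 38.1% of the genes higher in the circZbtb20 knockout and 42.1% of those higher in the Nr4a1 knockout, where the same shares over all genes were 33.7% and 28.7%. Slc25a24 alone was lower in both, of 8 genes lower for circZbtb20 and 7 for Nr4a1. Over all genes 635 were lower in both, of 2157 and 2327. Slc25a3 and Slc25a28 were higher in the circZbtb20 and lower in the Nr4a1 knockout, Slc25a28 at -0.93 with the other control. Tomm70a was the reverse. Over all 19504 genes these opposite calls numbered 571 and 577. Called in neither were 30 of the 73 genes and 11218 of all genes. Of these 30 genes, 17 were below the median on all 4 arrays, among them Slc25a13, Slc25a18, Slc25a22, Slc25a42, Timm9 and Timm29.

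**Figure D4:**
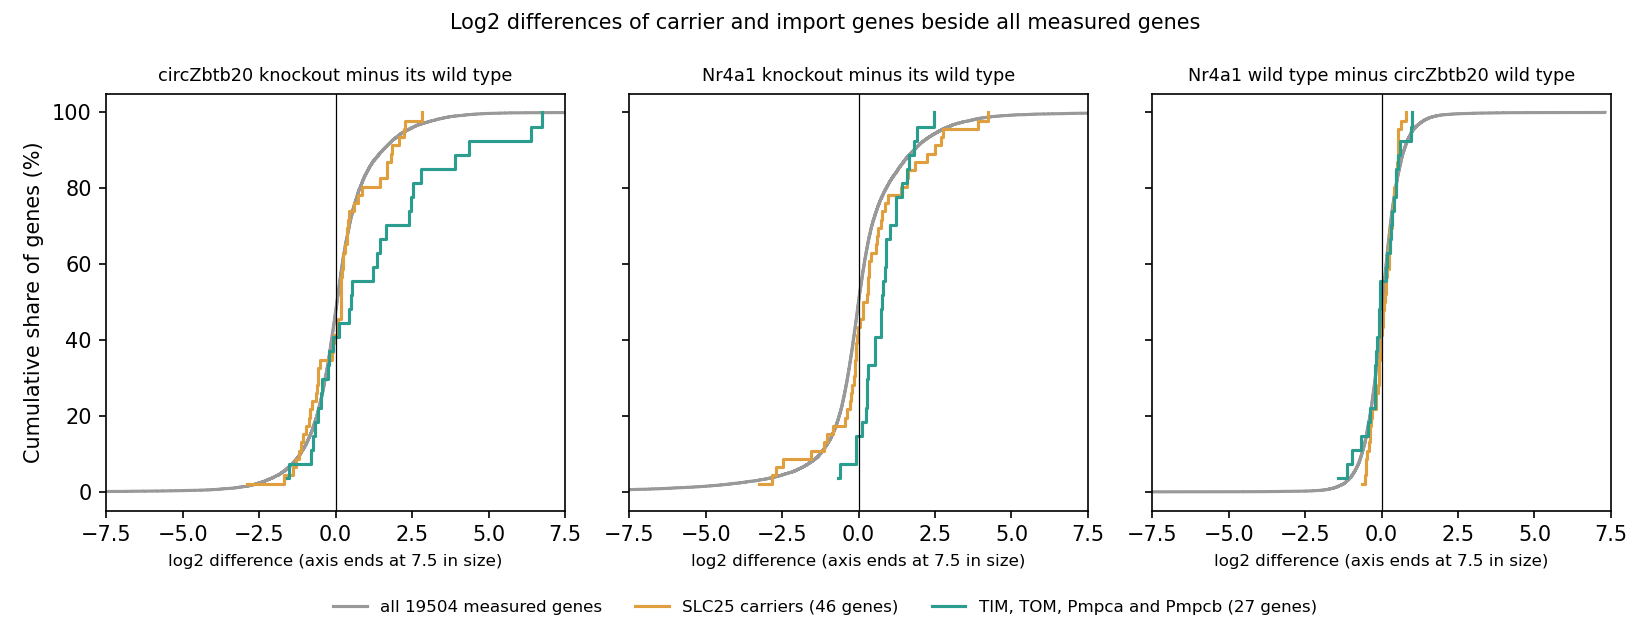
Cumulative share of genes (vertical axis, percent) by log2 difference (horizontal axis) for all 19504 measured genes, the 46 SLC25 carriers and the 27 import and processing genes, in both knockout comparisons and between the wild types. At its middle the import and processing curve lies to the right of the curve of all genes in both knockouts, with medians of 0.49 and 0.77. Between the wild types it lies near that curve, with a median of -0.06. No filter was applied to the curves. Past the filter the knockout medians were 1.22 and 0.86, beside 0.17 and 0.29 over all genes.

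Some of these genes lie next to each other on the mouse genome. In the RefSeq gene table of GRCm38, 5 pairs of these genes are neighbours. Slc25a23 was called higher in both knockouts while its neighbour Slc25a41 was below the median on all arrays. Slc25a5, higher by 3.90 in the Nr4a1 knockout, lies next to Slc25a43, which differed by -0.12 there and was likewise below the median. Slc25a24, lower in both knockouts, lies next to Slc25a54, at 0.16 and 0.41. Slc25a29 with Slc25a47 and Tomm20l with Timm9 were called in neither knockout.

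Other genes of the import pathway, taken from fixed lists, were read in the same way. Of all genes past the filter, 27.3% were called higher and 19.4% lower for circZbtb20, and 31.9% and 20.8% for Nr4a1. Against both controls these shares were 20.5% and 13.3%, and 26.1% and 14.4%. The lists are short, and their difference from these shares was not tested. Of 16 genes for the import motor, the intermembrane space and outer membrane assembly, 6 were called higher and 3 called lower for circZbtb20, and 8 and 0 for Nr4a1. Required against both controls, these counts were 5 and 1, and 5 and 0. Of the 16, 14 passed the filter in each comparison. Hspa9, the motor chaperone, named here after its values were seen, turned from -1.06 to 0.42 with the other control of circZbtb20. Romo1, a TIM23-associated subunit, was at 11.58 in the circZbtb20 knockout and between 6.66 and 7.76 on the others, and Grpel1, the nucleotide exchange factor of the motor, at 12.26 against 8.02 to 9.02. Dnajc15, a J-protein of the motor, was higher in both knockouts, by 2.36 and 1.93. Samm50, which assembles outer membrane barrels, was higher in both knockouts, by 2.03 and 1.97. Oxa1l, an inner membrane insertase, and Mtx2, an outer membrane metaxin, were higher by 1.77 and 1.41 in the Nr4a1 knockout. Of 6 genes of MICOS, the complex that shapes cristae, 3 were higher in the circZbtb20 and 4 in the Nr4a1 knockout, with 0 lower. All 6 passed the filter in each comparison. Micos10 was at 17.21 and 16.62 in the knockouts against 13.66 and 12.65, and Chchd3 was higher by 3.37 and 2.62. Micos13 was higher by 2.02 and 1.45, and Immt, the core MICOS subunit, was at 9.62 against 8.12 for Nr4a1, with a difference of -0.01 for circZbtb20.

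Of 15 other transporters and channels 6 were called higher and 1 lower for circZbtb20, and 6 and 0 for Nr4a1. Against both controls the counts were 4 and 1, and 5 and 0. Of the 15, 12 passed the filter for circZbtb20 and 11 for Nr4a1. Mtch1, a divergent outer membrane relative of the carriers, was at 12.85 in the circZbtb20 knockout and between 5.37 and 6.73 on the other arrays. The porin Vdac1 followed the pattern of Tomm70a, at 5.65 in the circZbtb20 knockout, 7.79 and 8.32 in the wild types and 10.42 in the Nr4a1 knockout. Sfxn3 was higher by 4.26 in the circZbtb20 knockout, and Vdac3 by 3.33 in the Nr4a1 knockout. The porin Vdac2 and the serine transporter Sfxn1 were higher there by 2.02 and 1.63, and Mcu, the pore of the calcium uniporter, was higher for circZbtb20 by 2.11. Of 13 proteases and chaperonins 4 were called higher and 4 lower for circZbtb20, and 4 higher and 2 lower for Nr4a1. Against both controls these counts were 2 and 3, and 3 and 1. Of the 13, 11 passed the filter for circZbtb20 and 12 for Nr4a1. Hspe1, a chaperonin subunit named here after its values were seen, turned sign with the other control in both comparisons, from 1.96 to -0.49 and from -1.01 to 1.44, and differed by 2.45 between the wild types. Immp1l, an inner membrane peptidase that also cleaves precursors, was higher in both, by 2.27 and 2.57, while the protease genes Lonp1, Afg3l2 and Yme1l1 were lower for circZbtb20, by -2.03, -1.89 and -1.82. For Nr4a1, the stress-activated protease Oma1 was higher by 2.44 and the aminopeptidase Xpnpep3 by 1.71, and the intermembrane space protease Htra2 was lower by -1.08.

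Of 11 regulators of mitochondrial genes 2 were called higher and 2 lower for circZbtb20, and 3 higher and 3 lower in the Nr4a1 knockout. These were 20% and 20%, and 30% and 30%, of the 10 past the filter. All genes past it gave 27.3% and 19.4%, and 31.9% and 20.8%. Nrf1 was higher in both, at 9.18 against 7.49 and at 10.27 against 6.73. Gabpa, the DNA-binding subunit of the factor that binds the ETS core, was at 7.01 in the circZbtb20 knockout and 10.72 in the Nr4a1 knockout, against 9.24 and 9.15 in the wild types. Its partner Gabpb1 went the other way, at 13.34 and 9.07 against 12.02 and 12.29. Myc was lower in both, by -2.63 and -4.11, and Yy1 was higher in the Nr4a1 knockout, at 12.41 against 9.05 to 9.60 on the other arrays. For Myc the wild types themselves differed by 2.81.

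A fit with limma gave the only p-values. It treated both wild types as 1 group, so its error rests on their difference alone and the lone knockout array is assumed to vary like them. With the filter, 56 of the 73 genes were in the fit. Over the 12232 genes that reached the median on any array, the circZbtb20 knockout had 11 higher and 1 lower of the 73 genes at a Benjamini-Hochberg adjusted p under 0.05, beside 13.6% of all genes. The 12 were Pmpcb and Tomm7, both with an adjusted p of 0.0196, Timm17b, Tomm6, Slc25a17, Pmpca, Timm10, Timm13, Slc25a10, Timm17a, Slc25a1 and, lower, Slc25a30. Over all 19504 genes without that filter limma called 0 of them and 0% of all genes, with a lowest adjusted p of 0.0511 and 4681 genes at an unadjusted p under 0.05. In the Nr4a1 knockout 10 were higher and 4 lower with the filter, beside 23.8% of all genes, and 9 higher and 4 lower without it, beside 11.2%. Slc25a12 (adjusted p = 0.00621, limma) and Slc25a5 (0.00766) had the lowest values with the filter. The limma calls of the circZbtb20 knockout thus end when low genes are kept in the fit, and those of the Nr4a1 knockout mostly do not.

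The circZbtb20 array also differed from its control in markers of other cells. Of 10 acinar markers 9 were lower there, with a summed level of 9.46 against 18.88 in its wild type and 15.52 in the other. The T cell markers gave 4 higher and 3 lower, at 11.26 against 10.62, and the ILC3 markers 4 higher and 3 lower, at 20.64 against 19.79. Of 6 macrophage, 6 epithelial and 4 B cell markers, 3, 2 and 0 were lower and 0, 1 and 0 higher there, and for Nr4a1 the lower ones were 5, 6 and 1, with 0 higher. The part of acinar RNA in the differences of the 73 genes was not tested.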

How the data were processed

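The deposited table holds log2 expression values of 4 arrays, 1 per genotype, which the authors made with Affymetrix Power Tools and RMA, per the submitters' processing notes. RMA corrects background, normalizes by quantiles and summarises probes. For versions, settings and the genome build of the rows: not given in the sources used here. Design text of the series names a protocol for another Affymetrix mouse array than the platform whose probe table names the rows. The log2 scale was read from the values, which end at a shared ceiling of 19.93. None of the 73 genes reached it, but whether the values keep RMA's usual scale is not known, so a difference need not equal a ratio of RNA. Quantile normalization can hide a change in total RNA.

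The rows (22205, of which 19571 had 1 symbol) were named through the platform's probe table, and for a gene with several rows the one with the highest mean was kept. Differences, counts and medians were computed with Python 3.11.15 and pandas 2.3.3, and the fits and normalizations with limma 3.58.1 in R 4.3.3. The rule of size and the limma fit were tested on simulated data. Benjamini-Hochberg adjustment ran over all genes fitted. Promoter windows came from RefSeq's GRCm38.p6 table, and gene order from its gene table. The genes, lists, motifs and rules were chosen with earlier results of these data known. All TOM, TIM and peptidase genes are named, and of the carriers those called in a knockout against both wild types, with a few fixed ones. From each pathway list up to 4 genes with the greatest difference, among those called against both wild types, are named per comparison. Carriers named as paralogues, as neighbours or for low values were chosen after their values were seen. Other normalizations, sizes, filters, controls and fits were tried as alternatives. The labels do not say how many mice stand behind a sample.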

Additional observations from a re-analysis of the deposited data

How the results depend on the processing

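With a size of 0.58 (log2) the circZbtb20 knockout had 16 lower genes instead of 8, the Nr4a1 knockout 33 higher instead of 19, and the wild types 5 higher and 4 lower instead of 1 and 2. With a size of 2 these counts were 12 higher and 1 lower, 7 higher and 4 lower, and 0 and 0. limma called 11 higher and 1 lower in the circZbtb20 knockout and 10 higher and 4 lower in the Nr4a1 knockout. limma without the filter, added after seeing the data, called 0 and 0, and 9 and 4. Between the wild types the 1 higher gene, Tomm34 at 1.00, was under the size after cyclic loess (0 higher), after centring each array on its median (0 higher) and after quantile normalization (0.96). The other 81 counts and medians under alternatives stayed within 1.5 times the count or the spread of the wild types. The alternatives include quantile normalization, no filter, both values above the median, the mean of rows and both other controls. Part of the 81 could not move, so their stability shows nothing. The medians were taken over every gene of the set, whatever the size or filter. The mean of rows and leaving out ceiling values could alter neither counts nor medians, for the reason given below. Of single called genes, 265 values kept direction and size under another scaling or control, 19 fell under the size, and 0 changed sign.

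Centring moved the median difference of all rows from 0.04 to 0.14 for circZbtb20 and from -0.01 to 0.16 for Nr4a1. No paired analysis was possible because each genotype has 1 array and the labels carry no replicate numbers. No gene of the set was at the ceiling or had several rows, so those alternatives changed nothing. Genes near the array medians depend on background, which limits their differences.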
